A study of Homo sapiens with 12 samples.

Results

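Glycolysis turns glucose into pyruvate and lactate, and hypoxia-inducible factor (HIF) is the transcription factor best known for raising its genes when oxygen is low. A module of 39 genes was read out from the RNA-seq counts of Ewing sarcoma cells before and after loss of RRM1. Members were taken by gene symbol from a list that holds 2 glucose transporters, 17 glycolytic enzymes, 3 regulators of glycolytic flux, 2 lactate transporters, 13 HIF targets outside glycolysis and 2 HIF alpha subunits. Of the 39, 38 had a row among the 20771 genes of the count table and 37 had enough counts to be tested among 16515 genes. CA9 had no row, so its RNA was not analysed here, and EGLN3 was too low to test.

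The libraries came from EW8-RRM1-KO and TC71-RRM1-KO, derivatives of the Ewing sarcoma lines EW8 and TC71. In both, the endogenous RRM1 gene, which encodes the large subunit of ribonucleotide reductase, was cut with CRISPR/Cas9 and the cells lived on a codon-optimized RRM1 transgene that doxycycline switches on. Each line was grown from a single cell, so line and clone cannot be told apart. Cells with doxycycline (labelled 0 h) were compared with cells deprived of it for 48 h (labelled 48 h), with 3 libraries in each of the 4 groups and both lines kept in DMEM with serum. The labels do not say whether the 3 libraries came from separate cultures, so the p-values measure the spread between these libraries, which may be technical.

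The main HIF alpha subunits of human cells are encoded by HIF1A and EPAS1. In oxygenated cells prolyl hydroxylases of the EGLN family mark both proteins for destruction through the von Hippel-Lindau protein, so that HIF activity is set mainly by protein stability and not by the RNA of the subunits. A stable alpha subunit pairs with ARNT and binds DNA at the core ACGTG or GCGTG. Some targets, such as the enzymes of glycolysis, feed energy metabolism, and others act in blood vessel growth (VEGFA, ADM), mitophagy (BNIP3, BNIP3L), lipid storage (HILPDA) or collagen folding (P4HA1, P4HA2). Most HIF targets answer to other transcription factors as well, c-Myc and AP-1 among them.

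As examples of the members' promoters, 6 are printed with each ACGTG or GCGTG, read on both strands, in capitals. The windows are the 250 bases before the RefSeq gene start (GRCh38.p14) and run 5′ to 3′ on the gene's own strand, which is + for all 6. ADM, EPAS1 and ANKRD37 are shown because they passed a 2-fold change, and HK2, PGK1 and LDHA, chosen after their values were seen, because they are the enzymes with the largest falls in EW8 among those holding more than 1 ACGTG. These enzymes therefore do not stand for their class, and EPAS1 encodes a HIF alpha subunit. The palindrome CACGTG counts as 2 overlapping matches of ACGTG, 1 on each strand.
ADM (chr11:10304823-10305072): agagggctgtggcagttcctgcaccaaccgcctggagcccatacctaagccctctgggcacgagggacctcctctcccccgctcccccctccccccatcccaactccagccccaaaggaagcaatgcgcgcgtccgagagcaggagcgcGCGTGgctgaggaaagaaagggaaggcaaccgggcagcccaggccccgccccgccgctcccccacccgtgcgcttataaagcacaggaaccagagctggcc
EPAS1 (chr2:46297157-46297406): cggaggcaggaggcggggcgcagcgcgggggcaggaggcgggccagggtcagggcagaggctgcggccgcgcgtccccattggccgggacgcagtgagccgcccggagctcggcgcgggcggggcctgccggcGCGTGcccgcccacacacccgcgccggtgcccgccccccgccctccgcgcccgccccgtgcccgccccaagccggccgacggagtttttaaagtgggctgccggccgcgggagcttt
ANKRD37 (chr4:185396591-185396840): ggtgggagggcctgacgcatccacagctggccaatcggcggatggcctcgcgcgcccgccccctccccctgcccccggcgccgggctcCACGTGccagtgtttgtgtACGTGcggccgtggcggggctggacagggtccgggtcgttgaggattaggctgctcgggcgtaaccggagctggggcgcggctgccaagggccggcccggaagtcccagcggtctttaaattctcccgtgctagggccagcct
HK2 (chr2:74833877-74834126): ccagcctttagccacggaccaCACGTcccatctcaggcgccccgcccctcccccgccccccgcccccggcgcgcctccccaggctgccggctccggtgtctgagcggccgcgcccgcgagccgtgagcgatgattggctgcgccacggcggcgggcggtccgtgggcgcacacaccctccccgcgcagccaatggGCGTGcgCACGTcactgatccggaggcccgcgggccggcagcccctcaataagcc
PGK1 (chrX:78103998-78104247): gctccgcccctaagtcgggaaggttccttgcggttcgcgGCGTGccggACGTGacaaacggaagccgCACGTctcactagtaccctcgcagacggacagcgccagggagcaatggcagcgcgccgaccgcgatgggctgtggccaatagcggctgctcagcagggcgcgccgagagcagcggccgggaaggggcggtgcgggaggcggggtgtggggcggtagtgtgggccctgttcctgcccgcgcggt
LDHA (chr11:18394313-18394562): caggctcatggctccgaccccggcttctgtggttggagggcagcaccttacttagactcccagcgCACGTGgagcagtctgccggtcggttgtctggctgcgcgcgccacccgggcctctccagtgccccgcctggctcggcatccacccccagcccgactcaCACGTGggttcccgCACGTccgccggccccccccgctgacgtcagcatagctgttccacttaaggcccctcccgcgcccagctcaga

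ADM and EPAS1 each held 1 GCGTG and no ACGTG, whereas ANKRD37 held 3 matches of ACGTG and LDHA 5. HK2 and PGK1 each held 2 matches of ACGTG and 1 of GCGTG. Of the 39 members 32 had a promoter entry, and 20 of these 32 held either core, against 43.2% of all 35116 promoters searched. Among the glycolytic enzymes 10 of 17 held either core, and among the matched HIF targets outside glycolysis 6 of 8. An AP-1 core, TGANTCA, stood in 2 of the 32, ENO2 and CA9, against 6.57% of all promoters. These matches are letters in a window and show neither binding nor its absence. SLC2A3, SLC16A1, VEGFA, BNIP3L, HILPDA, NDRG1 and NDUFA4L2 had no promoter entry.

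Library totals ran from 18468485 to 35698991 counts, and the biological coefficient of variation over all genes was 4.17%. RRM1 ran from 166 to 317 counts in EW8 at 0 h and from 1201 to 1514 at 48 h, a log2 fold change of 2.88, and one of 0.65 in TC71. The transgene is codon optimized and differs in sequence from the gene counted here, so this row does not check the labels, and every direction is given as the labels order the libraries. All 9 Ewing sarcoma markers were detected, with a summed level of 2430 to 2700 CPM per library, of which CCND1 gave 1390 ± 20.1 in EW8 at 0 h. The sum hides changes of single markers. In EW8 6 rose and 3 fell, against 37% and 31.6% of all genes, and in TC71 6 rose and 2 fell, against 22.9% and 19.2%. CPM are counts scaled to the library total, which TMM corrects for differences in composition. Of 5 leukocyte markers 1 (PTPRC) had a row, at 0 to 0.219 CPM. The summed fibroblast markers ran from 147 to 149 CPM in EW8 at 0 h and 176 to 183 at 48 h, with no row for PDGFRA, and from 46.7 to 48.3 and 62.3 to 64.6 CPM in TC71. Summed epithelial markers ran from 6.92 to 9.39 CPM and 21.4 to 23.2 in EW8 and from 71.1 to 73.1 and 98.4 to 111 in TC71, with no row for CDH1 or KRT5, and their part in the results below was not tested.

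At 0 h the members spanned a wide range of levels. Per kilobase of merged exons, ENO1, the enolase of most tissues, was highest in EW8 at 821 ± 12.2 CPM (SD, n = 3), followed by GAPDH at 707 ± 7.97 and LDHB at 665 ± 35.0. GAPDH and LDHB differed by less than 2 SD of LDHB, and the same 3 genes led in TC71 at 663 ± 22.8, 452 ± 10.1 and 366 ± 7.03. Merged exons can be longer than the transcript expressed, and the order depends on that length. Without it EW8 had 4280 CPM for ENO1, 2680 for PKM, 1980 for LDHB and 1690 for GAPDH. The highest HIF target outside glycolysis was BNIP3L, at 25.8 ± 1.10 CPM per kilobase in EW8 and 19.1 ± 0.594 in TC71. EPAS1, at 0.0486 ± 0.0152 and 0.192 ± 0.0350, and EGLN3, at 0.0113 ± 0.00567 and 0.0357 ± 0.0228, were the lowest members in both lines. EPAS1 lay less than 2 of its SD below SLC16A3 in EW8 (0.0749 ± 0.0249) and NDRG1 in TC71 (0.209 ± 0.0223).

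The lines differed in most members before doxycycline was removed. Of the 37 tested members 35 were called different at 0 h, where 65.7% of all genes tested were: 16 were higher in TC71, against 32.9%, and 19 were higher in EW8, against 32.8%. Of the 35 calls 33 held whichever library was left out, and those of PGAM1 and PFKL did not. A block for replicate number in the edgeR fit ended those of SLC2A1 (adjusted p = 0.0505), HILPDA (0.164) and PGAM1 (0.619). Hexokinases set the sharpest contrast: HK1 had 5.12, 4.98 and 5.37 CPM in EW8 and 47.5, 48.5 and 48.7 in TC71, a log2 difference (TC71 minus EW8) of 3.21 ± 0.08 (SE, adjusted p = 1.26e-27). HK2, the inducible hexokinase of tumors and muscle, was the more abundant of the pair in both lines and higher in EW8 (-0.67 ± 0.05, adjusted p = 5.51e-15). SLC16A3 (2.40 ± 0.23), EPAS1 (1.90 ± 0.33), ALDOC (1.86 ± 0.19), ANKRD37 (1.63 ± 0.34), BNIP3 (1.49 ± 0.08), NDRG1 (1.44 ± 0.20), PFKFB3 (1.28 ± 0.05) and ENO2 (1.09 ± 0.06) were also more than 2-fold higher in TC71, which makes 9 of the 37 members, against 11.9% of all genes. No member was past 2-fold in favour of EW8, where 4.77% of all genes were.

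After 48 h without doxycycline most glycolytic enzymes fell in EW8, while the other HIF targets went both ways. Of the 17 enzymes 14 fell and 1 rose, at an adjusted p below 0.05 by edgeR's quasi-likelihood test over all genes, where 31.6% of all genes fell and 37% rose. The median log2 fold change of the 17 was -0.38, against 0.03 for all genes tested. Of the 11 tested HIF targets outside glycolysis 5 rose and 4 fell, with a median of -0.12 and a range from -1.11 to 2.99. The sign of that median depended on the processing: it was 0.00 under scaling to total counts alone, 0.18 without a filter, 0.01 with pseudogene counts added and -0.34 with 10 counts required in every library. The 7 targets of at least 5 CPM at 0 h had a median of -0.33, near that of the enzymes, and the classes were not tested against each other. In TC71 the enzymes had no common direction: 4 rose, 5 fell and 8 passed no test, with a median of -0.03, where 22.9% of all genes rose and 19.2% fell. These enzyme counts moved with the scaling, and 2 to 6 enzymes rose when 1 library was left out. The HIF targets there gave 4 that rose and 4 that fell, with a median of 0.14 (-0.05 with 10 counts required in every library). In bulk RNA, fewer cells expressing a gene and less of its RNA per cell cannot be told apart.

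No enzyme passed 2-fold in either line. Over all 37 members 32 were called in EW8, where 68.6% of all genes were, and of these 10 rose and 22 fell, 6 and 1 of them past 2-fold, against 13.9% and 3.35% of all genes. In TC71 12 rose and 13 fell, 2 and 1 of them past 2-fold, against 3.26% and 0.854%, or 4.12% in either direction. In EW8 all 3 libraries at 48 h lay below those at 0 h for 22 members, 14 of them enzymes, as they did for 33.2% of all genes, and above them for 11 members, as for 37.9%. In TC71 this was so for 14 members below, against 23.7%, and 11 above, against 25.9%. Scaling to total counts alone raised the median of all genes in EW8 from 0.03 to 0.16 and the share of rises among its calls from 53.9% to 64.1% (TC71, 54.3% to 66.4%). Under that scaling 12 of the 17 enzymes still fell in EW8, 2 rose, and their median was -0.26.

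**Figure D1:**
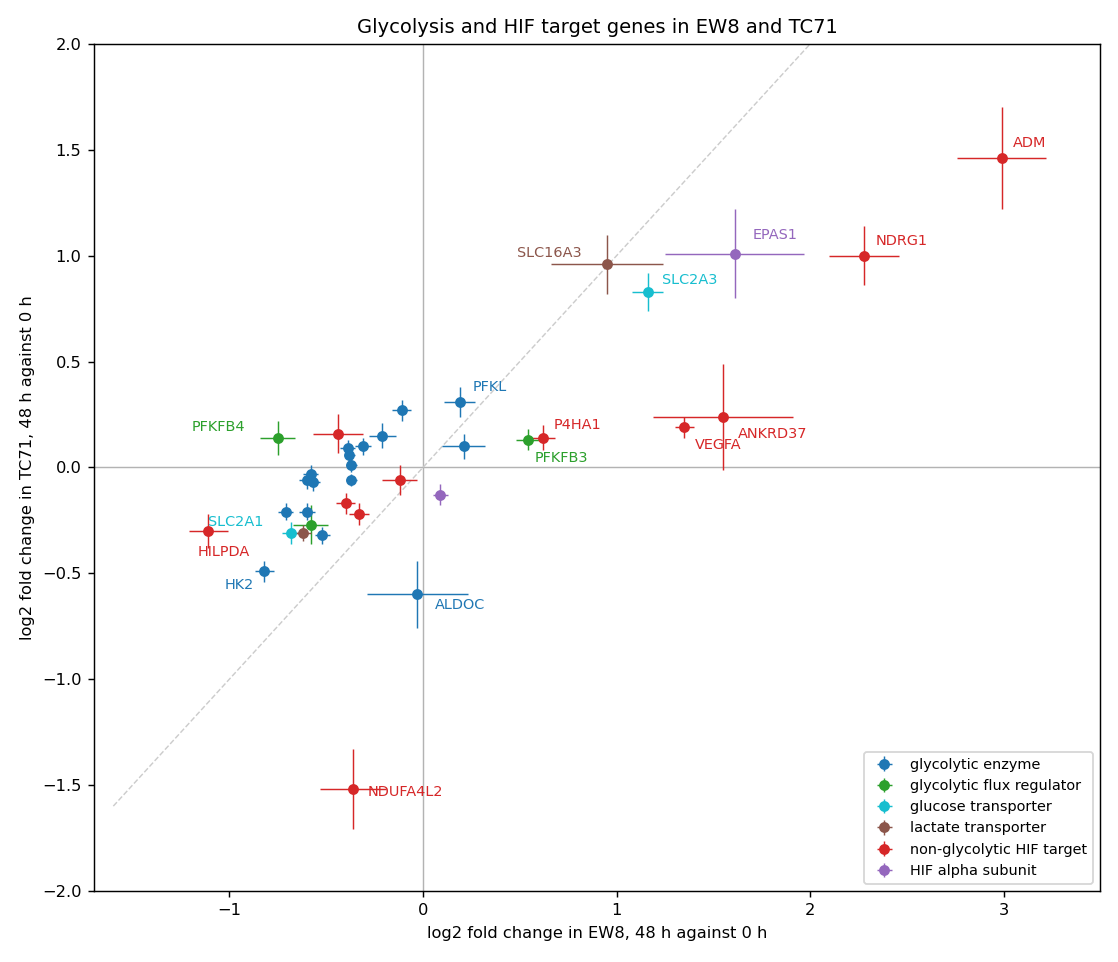
Log2 fold change of the 37 tested members at 48 h against 0 h, EW8 on the horizontal and TC71 on the vertical axis, with bars of 1 standard error, coloured by role; the dashed line marks equal change. The enzymes gather left of 0 and near 0 on the vertical axis, while ADM (2.99 in EW8, 1.46 in TC71) and NDRG1 (2.28, 1.0) lie far to the right.

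Taken as a sum, the 17 enzymes held 1.54%, 1.55% and 1.55% of all counts in EW8 at 0 h and 1.27%, 1.24% and 1.22% at 48 h. The 3 libraries at 48 h all lay below the 3 at 0 h. TC71 had 1.23%, 1.26% and 1.20% at 0 h and 1.26%, 1.21% and 1.28% at 48 h, which overlap. The HIF targets outside glycolysis were a far smaller fraction, at 0.0307%, 0.0292% and 0.0296% in EW8 at 0 h and 0.0419%, 0.0409% and 0.0427% at 48 h, with no overlap. In TC71 they held 0.0311%, 0.0299% and 0.0317% and then 0.0309%, 0.0319% and 0.0313%, which overlap. VEGFA alone gave 74.8 ± 3.89 of their 322 ± 10.0 CPM at 0 h and 190 ± 6.49 of 414 ± 7.77 at 48 h.

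**Figure D2:**
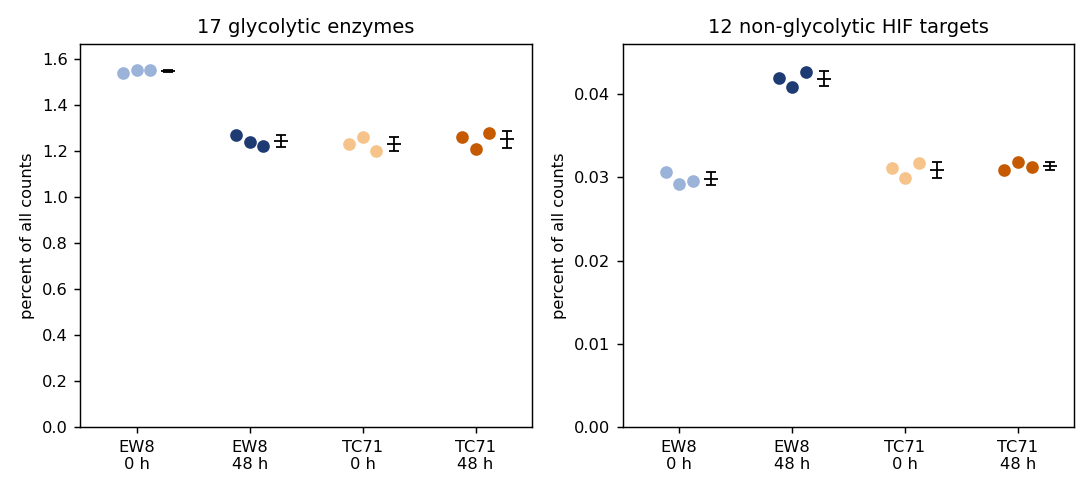
Percent of all counts held by the 17 glycolytic enzymes (left) and by the 12 HIF targets outside glycolysis that have a row (right) in each of the 12 libraries, with the mean and SD of each group beside its 3 points. The enzyme share of EW8 drops from about 1.55 ± 0.00577% to 1.24 ± 0.0252% while that of TC71 stays at 1.23 ± 0.0300% and 1.25 ± 0.0361%.

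The glucose transporters went in opposite directions in both lines. SLC2A1 encodes GLUT1, the broadly expressed glucose transporter and a classic HIF target, and it had 70.7, 76.8 and 70.5 CPM in EW8 at 0 h and 45.1, 44.9 and 45.7 at 48 h. In TC71 it had 84.2, 85.4 and 79.8 CPM and then 65.3, 63.4 and 72.5. All libraries at 48 h lay below those at 0 h, and SLC2A1 fell in EW8 (log2 fold change -0.68 ± 0.05, adjusted p = 4.32e-13) and TC71 (-0.31 ± 0.05, adjusted p = 8.91e-06). SLC2A3 encodes GLUT3, a transporter of high glucose affinity known from neurons (chromosome 12, 7919230 to 8019007). It had 14.9, 14.8 and 14.6 CPM in EW8 at 0 h and 30.1, 34.5 and 34.5 at 48 h. SLC2A3 rose past 2-fold in EW8 (1.16 ± 0.08, adjusted p = 1.39e-15) and also rose in TC71 (0.83 ± 0.09, adjusted p = 1.70e-09), where it went from 7.71, 8.04 and 8.73 CPM to 13.1, 14.6 and 15.6, with no overlap in either line. The near-identical SLC2A14 had 110 counts over the 12 libraries against 4862 for SLC2A3, and reads common to both may have gone to either row or to neither.

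Within each library the ratio of SLC2A3 to SLC2A1 counts, which needs no scaling to depth, went from 0.204 ± 0.00979 to 0.731 ± 0.0548 in EW8 (SD, n = 3 each), a log2 change of 1.84. In TC71 it went from 0.0984 ± 0.00965 to 0.216 ± 0.0145, a log2 change of 1.14. The 3 ratios at 48 h lay above the 3 at 0 h in both lines (exact two-sided permutation p = 0.1, the smallest that 3 against 3 libraries can give).

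Hexokinase traps glucose as its phosphate. HK2 had 182, 189 and 186 CPM in EW8 at 0 h and 109, 108 and 98.1 at 48 h, the largest fall of any enzyme in that line (-0.82 ± 0.05, adjusted p = 3.63e-17). TC71 had 119, 116 and 113 CPM and then 86.5, 78.7 and 82.6 (-0.49 ± 0.05, adjusted p = 1.49e-10). Libraries of the 2 times did not overlap in either line. HK1, the housekeeping hexokinase, passed the test in neither (0.21 ± 0.11 and 0.10 ± 0.06), though it did in TC71 without the second library at 48 h (0.15, adjusted p = 0.0324) and in both lines under scaling to total counts alone (0.34, adjusted p = 0.00598, and 0.15, adjusted p = 0.0237). The HK2 to HK1 ratio of counts therefore went from 36.0 ± 1.70 to 17.5 ± 1.02 in EW8 and from 2.41 ± 0.0893 to 1.60 ± 0.0746 in TC71, with no overlap in either (exact permutation p = 0.1).

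**Figure D3:**
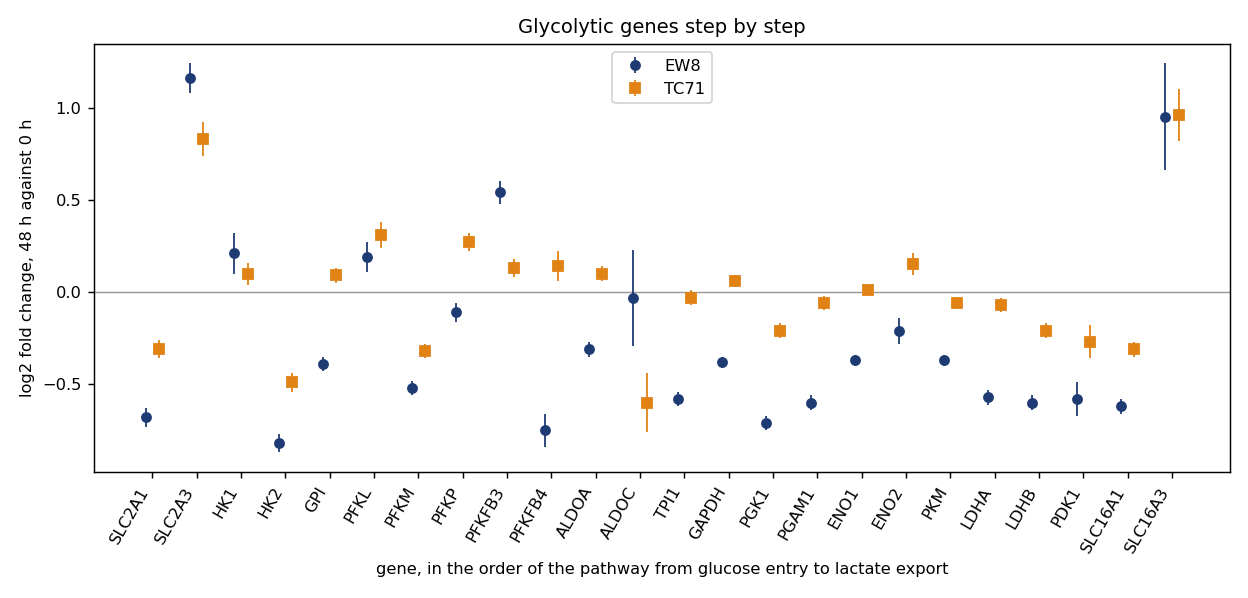
Log2 fold change at 48 h against 0 h with bars of 1 standard error for 24 genes, ordered from glucose entry to lactate export, in EW8 (circles) and TC71 (squares). From TPI1 to SLC16A1 every EW8 value lies below the TC71 value of the same gene, and SLC2A3 and SLC16A3 stand above 0 in both lines.

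Phosphofructokinase, the committed step of glycolysis, is encoded by 3 genes, and these did not move together. PFKM, the muscle form, fell in EW8 (-0.52 ± 0.04, adjusted p = 1.63e-14) and TC71 (-0.32 ± 0.04, adjusted p = 1.66e-08). PFKL, the liver form, had 96.9, 114 and 103 CPM in EW8 at 0 h and 127, 120 and 110 at 48 h, which overlap, and was the only enzyme called higher there (0.19 ± 0.08, adjusted p = 0.04). That call was lost without the first or the third EW8 library at 0 h, the first or second at 48 h or the first TC71 library at 0 h, with adjusted p up to 0.29, and with upper-quartile factors (adjusted p = 0.135), without a filter (0.056) or with 10 counts required in every library (0.0622). In TC71 PFKL rose from 124, 132 and 118 CPM to 167, 138 and 159 (0.31 ± 0.07, adjusted p = 0.00334), and this call held whichever library was left out.

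PFKP, the platelet form, was called in opposite directions. It had 195, 212 and 198 CPM in EW8 at 0 h and 194, 181 and 186 at 48 h (-0.11 ± 0.05, adjusted p = 0.0313), and 137, 143 and 132 CPM in TC71 and then 168, 155 and 173 (0.27 ± 0.05, adjusted p = 1.51e-05). The fall in EW8 was small, lost its call without the second (-0.09, adjusted p = 0.133) or the third (-0.11, adjusted p = 0.0818) EW8 library at 48 h, and stood at 0.01 under scaling to total counts alone. The rise in TC71 kept its call without any 1 library. The response was lower in EW8 than in TC71 by 0.38 on the log2 scale (EW8 minus TC71, -0.38 ± 0.06, adjusted p = 9.68e-06).

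GPI and ENO2 also went opposite ways by the test. GPI, which interconverts the hexose phosphates, had 466, 508 and 473 CPM in EW8 at 0 h and 369, 364 and 372 at 48 h (-0.39 ± 0.04, adjusted p = 5.46e-11). In TC71 it had 561, 595 and 556 CPM and then 618, 592 and 617, which overlap, and the call there (0.09 ± 0.04, adjusted p = 0.0427) was lost without the first or the third library of EW8 at 0 h, the third of EW8 at 48 h or the first or the third of either TC71 group, with adjusted p up to 0.174. ENO2, the neuronal enolase, had 16.7, 18.3 and 17.4 CPM in EW8 and then 15.6, 14.7 and 15 (-0.21 ± 0.07, adjusted p = 0.0119). It had 37.0, 35.3 and 38.5 CPM in TC71 and then 42.1, 39.4 and 41.2 (0.15 ± 0.06, adjusted p = 0.0348), a call lost without the first or the third library of EW8 at 0 h, the first or second of TC71 at 0 h or the first or the third of TC71 at 48 h, with adjusted p up to 0.165. Scaling to total counts alone ended the ENO2 call in EW8 (-0.08, adjusted p = 0.328). Upper-quartile factors (GPI, adjusted p = 0.141, and ENO2, 0.0829) and the DESeq2 Wald test (0.0504 and 0.0635) also ended both calls in TC71, and a fit that was not robust ended that of GPI (0.0514). For both genes the difference between the lines itself passed the test (GPI, -0.48 ± 0.05, adjusted p = 3.77e-09; ENO2, -0.35 ± 0.09, adjusted p = 0.00167). Opposite calls of this kind were given by 3 of the 37 members, against 2.82% of all genes tested. With a block for replicate number none of these 3 kept both calls.

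From aldolase onward the main enzymes fell together in EW8, and in TC71 they fell by less or did not pass the test. PGK1, the first enzyme to yield ATP, had 899, 826 and 876 CPM in EW8 at 0 h and 530, 551 and 511 at 48 h (-0.71 ± 0.04, adjusted p = 3.04e-18). In TC71 it had 686, 675 and 668 CPM and then 581, 586 and 584 (-0.21 ± 0.04, adjusted p = 1.40e-05). Neither line showed overlap, and the fall was larger in EW8 (difference -0.50 ± 0.05, adjusted p = 1.02e-09). ALDOA (-0.31), TPI1 (-0.58), GAPDH (-0.38), PGAM1 (-0.60), ENO1 (-0.37), PKM (-0.37) and LDHA (-0.57) all fell in EW8, each with a standard error of 0.03 or 0.04. In TC71 these 7 lay between -0.07 and 0.10 and none passed the test. ALDOA passed it there without the second library of 0 h (0.13, adjusted p = 0.0208) or of 48 h (0.14, adjusted p = 0.00585), and LDHA without the second EW8 library at 0 h (-0.07, adjusted p = 0.0417). Scaling decided others: under total counts alone GAPDH (0.11, adjusted p = 0.00492) and ALDOA (0.15, adjusted p = 0.0198) were called higher, and with upper-quartile factors PKM (-0.09, adjusted p = 0.0211) and LDHA (-0.10, adjusted p = 0.0175) were called lower. LDHA, which makes lactate from pyruvate, had 1660, 1480 and 1660 CPM in EW8 and then 1090, 1100 and 1050, against 1080, 1050 and 1080 and then 991, 1020 and 1040 in TC71. Its partner LDHB fell in both (-0.60 ± 0.04 and -0.21 ± 0.04), so the ratio of LDHB to LDHA counts hardly moved in EW8 (1.24 ± 0.0288 and 1.21 ± 0.0132) and went from 1.02 ± 0.00661 to 0.931 ± 0.0108 in TC71.

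ALDOC, the brain aldolase, was low in EW8, with 29, 13 and 27 counts before doxycycline was removed and 16, 16 and 23 after it, and passed no test (-0.03 ± 0.26). In TC71 it fell from 3.58, 3.14 and 3.60 CPM to 2.40, 2.20 and 2.23 (-0.60 ± 0.16, adjusted p = 0.00218), the largest fall of an enzyme in that line. Processed pseudogenes with rows of their own amounted to at most 2.84% of a member's counts (BNIP3), 1.72% for LDHA and 1.12% for GAPDH.

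Among the regulators of flux, PFKFB3 and PFKFB4 make and break fructose 2,6-bisphosphate, the activator of phosphofructokinase, and PDK1 inhibits pyruvate dehydrogenase. PFKFB3 had 32.7, 34.3 and 32.1 CPM in EW8 at 0 h and 48.5, 47.6 and 47.6 at 48 h, and rose (0.54 ± 0.06, adjusted p = 1.73e-10). PFKFB4 had 14.8, 15 and 14.4 CPM and then 8.93, 8.72 and 8.56, and fell (-0.75 ± 0.09, adjusted p = 1.62e-09). PDK1 fell in EW8 from 19.9, 18.2 and 17.3 CPM to 11.1, 12.6 and 13.1 (-0.58 ± 0.09, adjusted p = 2.48e-07). These 3 gene changes did not overlap between times in EW8. In TC71 PFKFB3 (0.13 ± 0.05, adjusted p = 0.0338) and PDK1 (-0.27 ± 0.09, adjusted p = 0.0111) were called the same way and PFKFB4 was not called (0.14 ± 0.08). The PFKFB3 call in TC71 was lost without the first or the third library of EW8 at 0 h, the third of EW8 at 48 h or the first or the third of either TC71 group (adjusted p up to 0.176) and with upper-quartile factors (0.0897), and that of PDK1 without the second library at 0 h (-0.23, adjusted p = 0.0553) or the third at 48 h (-0.22, adjusted p = 0.0703). PFKFB4 gave the largest difference between lines of any glycolytic gene (-0.89 ± 0.12, adjusted p = 1.36e-07).

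Lactate leaves the cell through SLC16A1 (MCT1) and SLC16A3 (MCT4), the latter being the HIF-responsive exporter. SLC16A1 fell from 291, 271 and 287 CPM to 183, 186 and 183 in EW8 (-0.62 ± 0.04, adjusted p = 3.37e-16) and from 233, 232 and 234 to 185, 189 and 188 in TC71 (-0.31 ± 0.04, adjusted p = 3.22e-08). SLC16A3 rose in TC71 from 3.46, 3.14 and 3.68 CPM to 7.10, 5.22 and 7.64 (0.96 ± 0.14, adjusted p = 1.40e-06). No libraries of the 2 times overlapped for either gene. In EW8 SLC16A3 rested on 15 to 16 counts in each library at 0 h and 22 to 28 at 48 h (0.95 ± 0.29, adjusted p = 0.00484), and its call was lost without the third library at 0 h (0.62, adjusted p = 0.0963). Like the glucose transporters, the pair shifted toward the rarer gene, with a log2 change of the SLC16A3 to SLC16A1 ratio of 1.53 in EW8 and 1.25 in TC71 (exact permutation p = 0.1 in each).

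**Figure D4:**
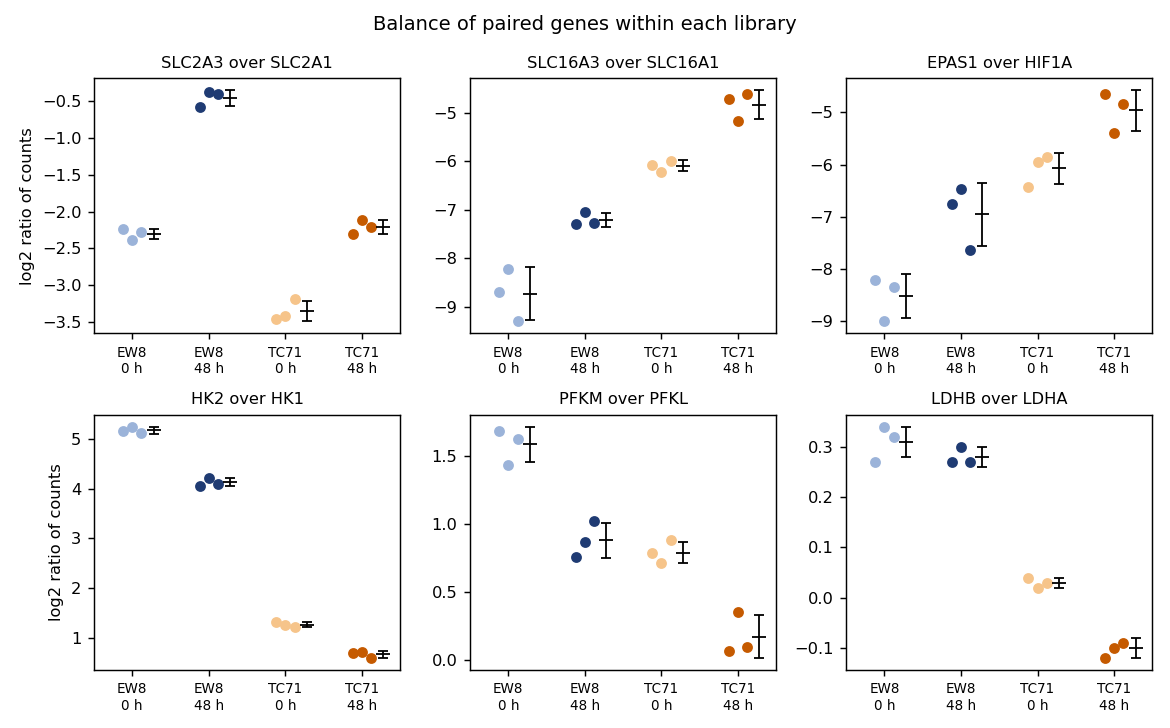
Log2 ratio of counts of 6 gene pairs in each library (points), with the group mean and SD beside them; each panel has its own vertical range. The ratios of SLC2A3 to SLC2A1, SLC16A3 to SLC16A1 and EPAS1 to HIF1A are higher at 48 h in both lines, those of HK2 to HK1 and PFKM to PFKL are lower in both, and the LDHB to LDHA ratio overlaps between times in EW8.

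Among HIF targets outside glycolysis, ADM and NDRG1 had the largest rises in both lines. ADM encodes adrenomedullin, a vasodilator peptide (chromosome 11, 10305073 to 10307397), and had 0.526, 0.516 and 0.641 CPM in EW8 at 0 h and 4.15, 4.56 and 5.09 at 48 h. In TC71 it had 0.372, 0.736 and 0.993 CPM and then 1.60, 1.94 and 2.13. Every library at 48 h lay above every one at 0 h, and ADM rose 7.97-fold in EW8 (log2 2.99 ± 0.23, adjusted p = 7.18e-14) and 2.76-fold in TC71 (1.46 ± 0.24, adjusted p = 9.90e-06). These are low levels, resting on 12, 9 and 21 counts in EW8 at 0 h and 78, 91 and 104 at 48 h.

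NDRG1, a stress-responsive gene linked to differentiation (chromosome 8, 133237175 to 133302022), behaved likewise. It had 1.14, 0.802 and 0.824 CPM in EW8 at 0 h and 4.15, 4.31 and 4.94 at 48 h, or 4.85-fold (2.28 ± 0.18, adjusted p = 3.62e-13). TC71 had 2.35, 2.35 and 2.81 CPM and then 5.15, 4.63 and 5.23 (1.0 ± 0.14, adjusted p = 4.77e-07), a rise of 2.0-fold that stood just short of the 2-fold threshold. The groups did not overlap in either line. VEGFA, the main growth factor of blood vessels (chromosome 6, 43770184 to 43786487), was the most abundant of the members that rose past 2-fold, with 73.7, 79.2 and 71.6 CPM in EW8 at 0 h and 190, 184 and 197 at 48 h (1.35 ± 0.05, adjusted p = 7.71e-22). In TC71 it had 58.5, 55.3 and 64.1 CPM and then 71.4, 68.0 and 64.1 (0.19 ± 0.05, adjusted p = 0.00453), where the groups all but touched and the call was lost without the second library at 0 h (0.14, adjusted p = 0.0526).

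ANKRD37, a small ankyrin-repeat gene and HIF target, rested on 5, 8 and 12 counts in EW8 at 0 h and 14, 23 and 23 at 48 h, or 1.55 ± 0.36 (adjusted p = 2.76e-04). It passed no test in TC71 (0.24 ± 0.25), where its libraries overlapped. Of its exon bases 40.3% overlap UFSP2, so that its reads may be partly those of UFSP2 unless the counting used strand, which the sources do not say. P4HA1 and P4HA2 encode prolyl 4-hydroxylase subunits of collagen synthesis and went apart in EW8. P4HA1 rose from 35.3, 31.6 and 34.3 CPM to 49.4, 52.5 and 53.7 (0.62 ± 0.06, adjusted p = 4.11e-11), while P4HA2 fell from 5.56, 4.98 and 5.70 CPM to 4.20, 3.81 and 4.11 (-0.44 ± 0.13, adjusted p = 0.00328). Neither pair of groups overlapped. In TC71 P4HA2 was not called (0.16 ± 0.09), and P4HA1 was (0.14 ± 0.06, adjusted p = 0.0434), a call lost without the first or the third library of EW8 at 0 h, the third of EW8 at 48 h, the first or second of TC71 at 0 h or the second or the third at 48 h (adjusted p up to 0.268), with upper-quartile factors (0.0918) and by the DESeq2 Wald test (0.0646).

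**Figure D5:**
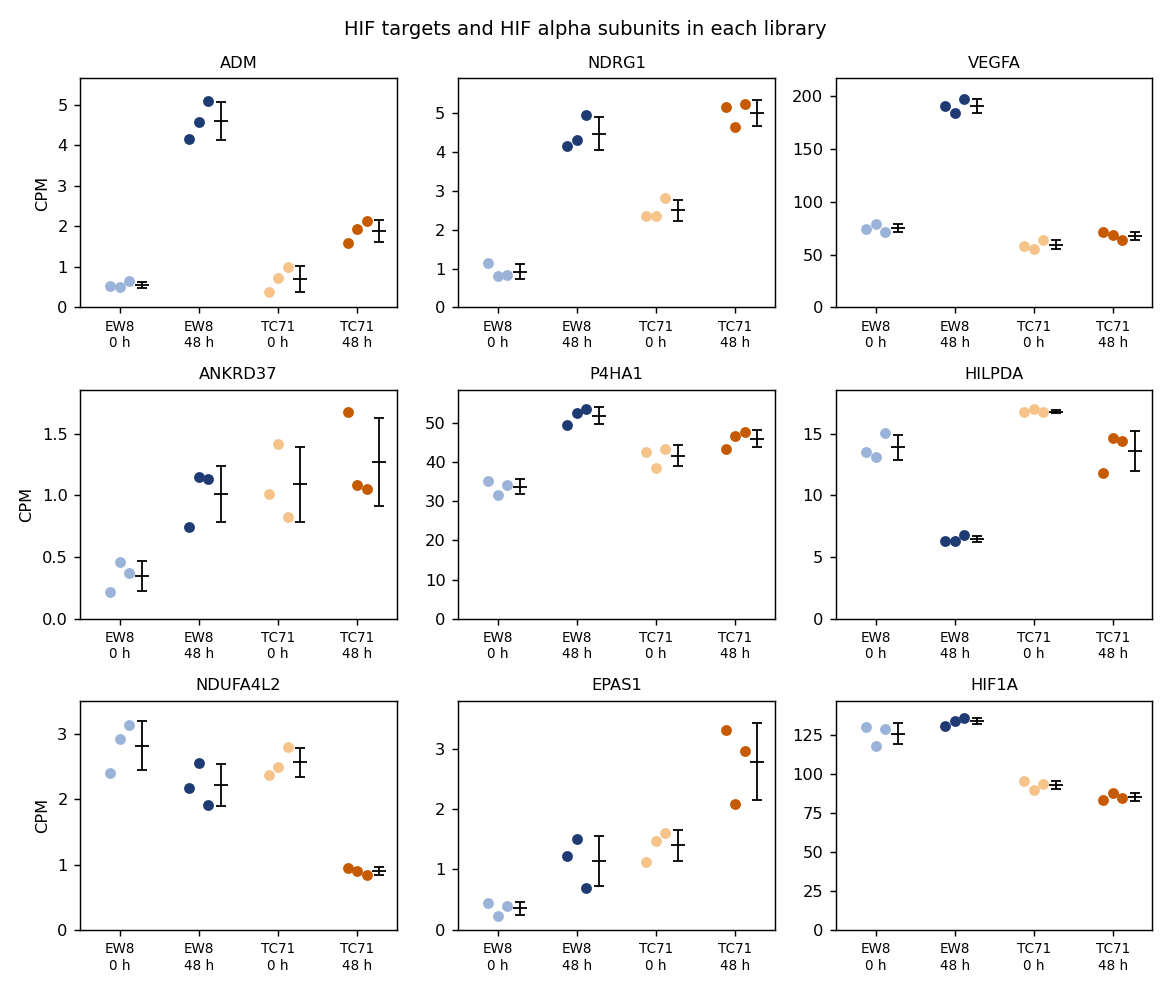
CPM of 7 HIF targets and of the HIF alpha subunits EPAS1 and HIF1A in each library (points), with the group mean and SD beside them; each panel starts at 0 and has its own vertical range. ADM, NDRG1 and EPAS1 are higher at 48 h in both lines, VEGFA and ANKRD37 are higher at 48 h in EW8, HILPDA is lower in both, and NDUFA4L2 separates in TC71.

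Other HIF targets went down. HILPDA, which coats lipid droplets and blocks their breakdown (chromosome 7, 128455849 to 128458418), had 13.5, 13.1 and 15.1 CPM in EW8 at 0 h and 6.33, 6.32 and 6.75 at 48 h. It was the only member to fall past 2-fold in EW8 (-1.11 ± 0.10, adjusted p = 6.08e-12). In TC71 it had 16.8, 17 and 16.8 CPM and then 11.8, 14.7 and 14.4 (-0.30 ± 0.08, adjusted p = 0.00343), again with no overlap. NDUFA4L2, a mitochondrial protein that dampens respiration in low oxygen (chromosome 12, 57234903 to 57240715), was the only member to fall past 2-fold in TC71, from 2.38, 2.50 and 2.81 CPM to 0.954, 0.895 and 0.835 (-1.52 ± 0.19, adjusted p = 9.37e-08). In EW8 it had 2.41, 2.92 and 3.14 CPM and then 2.18, 2.56 and 1.91, which overlap (-0.36 ± 0.17, adjusted p = 0.0601). Its fall in EW8 passed the test without the first library at 0 h (-0.50, adjusted p = 0.0178) or the second at 48 h (-0.48, adjusted p = 0.0334), and also with upper-quartile factors (-0.40, adjusted p = 0.0371), with 10 counts required in every library (-0.37, adjusted p = 0.0444) and with each line fitted alone (-0.39, adjusted p = 0.0408).

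Among the mitophagy receptors, BNIP3L fell in EW8 (-0.33 ± 0.05, adjusted p = 1.91e-07) and TC71 (-0.22 ± 0.05, adjusted p = 4.82e-04), and BNIP3 passed the test in neither (-0.12 ± 0.09 and -0.06 ± 0.07), though it did in EW8 without the second library at 0 h (-0.25, adjusted p = 0.0142). EGLN1, the principal HIF prolyl hydroxylase, had 74.9, 66.2 and 70.6 CPM in EW8 at 0 h and 52.8, 54.6 and 53.2 at 48 h, and fell (-0.40 ± 0.05, adjusted p = 1.54e-08). In TC71 it fell too (-0.17 ± 0.05, adjusted p = 0.00665), by less than in EW8 (difference -0.23 ± 0.07, adjusted p = 0.00743), a difference not called under scaling to total counts alone (-0.16, adjusted p = 0.0561). EGLN3, the HIF-induced hydroxylase, had 1 to 4 counts in the 6 EW8 libraries and 2 to 11 in those of TC71, too few to compare.

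Of the HIF alpha subunits, EPAS1 had the larger fold changes and HIF1A by far the higher level. EPAS1 (chromosome 2, 46293667 to 46386697) had 0.438, 0.229 and 0.397 CPM in EW8 at 0 h and 1.22, 1.50 and 0.685 at 48 h, from 4 to 13 and 14 to 30 counts. It had 1.12, 1.47 and 1.61 CPM in TC71 and then 3.32, 2.09 and 2.97. The groups did not overlap, and EPAS1 rose in EW8 (1.61 ± 0.36, adjusted p = 1.64e-04) and TC71 (1.01 ± 0.21, adjusted p = 2.28e-04). HIF1A had 130, 118 and 129 CPM in EW8 and then 131, 134 and 136 (0.09 ± 0.04, adjusted p = 0.0901), and it had 95.4, 90.0 and 93.8 CPM in TC71 and then 83.1, 87.7 and 84.8 (-0.13 ± 0.05, adjusted p = 0.0233). The HIF1A call in TC71 was lost without the first or the third library of either time (adjusted p up to 0.114) and under scaling to total counts alone (-0.08, adjusted p = 0.148), which instead called the EW8 value (0.21, adjusted p = 6e-05). EPAS1 counts remained below HIF1A counts throughout, at a ratio of 0.00854 ± 0.00317 in EW8 and 0.0329 ± 0.00826 in TC71 at 48 h, up from 0.00279 ± 0.000748 and 0.0151 ± 0.00295.

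The difference between the 2 responses was tested directly for each member. The response was lower in EW8 for 14 of the 17 enzymes, higher for none and not called for HK1, PFKL and ALDOC (PFKL was called without the second TC71 library at 48 h, -0.20, adjusted p = 0.0346, and ALDOC without the first EW8 library at 0 h, 0.80, adjusted p = 0.0443), where over all genes 22.4% were lower and 25.7% higher. The median difference of the 17 (EW8 minus TC71) was -0.38, against 0.04 for all genes. For the 11 HIF targets outside glycolysis it was higher in EW8 for 6, lower for 3 and uncalled for 2, with a median of 0.47. Requiring 10 counts in every library, which removes ADM and ANKRD37, turned that median to -0.09. All 5 members whose responses differed by more than 2-fold belonged to these targets, against 7.28% of all genes in that direction and 8.26% in either. No member had a response lower in EW8 by more than 2-fold, where 0.981% of all genes had. They were ADM (1.53 ± 0.37, adjusted p = 8.48e-04), ANKRD37 (1.32 ± 0.44, adjusted p = 0.0139), NDRG1 (1.28 ± 0.24, adjusted p = 3.60e-05), VEGFA (1.16 ± 0.07, adjusted p = 1.54e-14) and NDUFA4L2 (1.16 ± 0.26, adjusted p = 4.36e-04), the last through its fall in TC71. Without the first EW8 library at 0 h the difference of ANKRD37 was 1.08 (adjusted p = 0.0606). The responses of SLC16A3 (-0.01, from 0.95 ± 0.29 in EW8 and 0.96 ± 0.14 in TC71) and EPAS1 (0.60 ± 0.42) were not called different. This does not show that either response was equal in the 2 lines.

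The members that rose most started low. Of the 4 tested HIF targets under 5 CPM at 0 h in EW8, 3 rose and none fell, with a median of 1.92, while of the 7 above it 2 rose and 4 fell, with a median of -0.33. Of all genes tested under that level 37.9% rose and 13.5% fell, with a median of 0.29, and above it 36.4% and 42.4%, with a median of -0.05. TC71 gave 2 that rose and 1 that fell among the same 4, and 2 and 3 among the other 7, where 17.8% and 8.21% of all genes under the level did so and 25.7% and 25.3% of those above it. The level that divides them was chosen after the values were seen.

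Genes of related pathways were read in the same fit, where rises made up 37% and falls 31.6% of all genes in EW8 (TC71, 22.9% and 19.2%). Of 26 tested HIF targets beyond the module EW8 had 13 rises and 7 falls, and TC71 had 11 rises and 7 falls. Among those past 2-fold in both lines were ANGPTL4, an inhibitor of lipoprotein lipase (log2 fold change 3.98 in EW8 and 1.33 in TC71), MAFF, a small MAF factor (3.86 and 1.90), KLF10, a TGF-beta early response gene (2.80 and 1.15), and DDIT4, an inhibitor of mTORC1 (2.74 and 1.16). ANGPTL4 began from 11, 11 and 16 counts in EW8.

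Beside the same shares of all genes (37% and 31.6% in EW8, 22.9% and 19.2% in TC71), the other lists were smaller. Among 11 tested genes of HIF regulation EW8 had 4 rises and 5 falls, and TC71 had 1 rise and 3 falls. Of 13 further genes of glucose metabolism EW8 had 4 rises and 6 falls, and TC71 had 3 falls and no rise. The pyruvate dehydrogenase list gave 2 rises and 6 falls of 11 in EW8 and 4 rises and 3 falls in TC71. In the pentose phosphate pathway, which draws on glucose 6-phosphate to make NADPH and ribose, 6 of 8 genes fell in EW8 and 4 of 8 in TC71 and none rose, with medians of -0.52 and -0.08.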

How the data were processed

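Poly(A) RNA of 12 samples, 3 in each of 4 groups, was sequenced as stranded paired-end libraries. The authors checked reads with FastQC, aligned them to hg38 with STAR and deposited raw counts per gene, the only unit used; the counting tool, its strand setting and the annotation release are not given in the sources used here. No per-sample column was left unused (0). Counts were filtered with filterByExpr (minimum count 10, minimum total 15), scaled by TMM and fitted as 4 groups with edgeR 4.0.16 (robust quasi-likelihood test, R 4.3.3). Adjusted p-values are Benjamini-Hochberg over the 16515 genes tested. Each SE is the absolute log2 fold change divided by the square root of the F statistic, and is unreliable for a change near 0. A gene rose or fell at an adjusted p below 0.05, and was past 2-fold where its fold change also exceeded 2. The script was tested on simulated counts. Libraries of a group differed by more than sampling noise in each of the pairs (chi-square per gene from 2.05 to 9.48), so none was counted as a duplicate. DESeq2 1.42.0, other scalings and filters, a replicate block and leaving out each library were alternatives.

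Members and lists were chosen with earlier results of these data known. Values are given in full for members past 2-fold in a line, members whose responses differed past 2-fold or ran in opposite directions, and the largest change each way within a role, and other lists as counts with members past 2-fold in both lines named. 1 such gene is not reported here. Gene positions and merged exon lengths are from GENCODE release 44 (hg38), which held 19943 of the 20771 genes. Isozyme ratios used raw counts and exact permutation tests within a line.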

Additional observations from a re-analysis of the deposited data

Results flagged for a closer look

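In 5 members the response to 48 h without doxycycline differed between EW8 and TC71 by more than 2-fold, by a test of the difference itself in the edgeR fit of all 12 libraries, where 8.26% of all genes tested did so and 7.28% with the higher response in EW8. The log2 difference (EW8 minus TC71) was 1.53 for ADM, which rose in both lines, and 1.28 for NDRG1, which did as well. For VEGFA it was 1.16, from 1.35 in EW8 and 0.19 in TC71. For ANKRD37 it was 1.32, at 5 to 29 counts in each library at 0 h, and without the first EW8 library at 0 h it was 1.08 and not called (adjusted p = 0.0606). NDUFA4L2 gave 1.16 by falling in TC71 (-1.52) with a value of -0.36 in EW8. All 5 belong to the HIF targets outside glycolysis, no glycolytic enzyme, transporter or regulator was among them, and 4 of the 5 were under 5 CPM at 0 h in EW8.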

How the results depend on the processing

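Depth limits the members under 5 CPM, and 3 libraries a group limit every p-value. Unless said otherwise, the cause of a change was not tested. Under scaling to total counts alone, 2 enzymes rose and 12 fell in EW8 (of all 16515 genes, 7207 and 4031), 7 rose and 5 fell in TC71 (4631 and 2345), and their medians were -0.26, 0.02 and, for the difference between responses, -0.31 (TC71 minus EW8 at 0 h, -0.22). The medians of the other HIF targets were then 0.00 in EW8, 0.55 for the difference and 0.40 at 0 h. With upper-quartile factors 0 enzymes rose in EW8 and 2 in TC71, with medians of -0.42, -0.06 and, at 0 h, -0.28 (other targets at 0 h, 0.35). Of all 16515 genes 5742 rose and 5605 fell in EW8 under those factors, and 3392 rose and 3769 fell in TC71. Fitting each line alone gave an enzyme median of -0.41 in EW8. The DESeq2 Wald test left 2 enzymes that rose in TC71, where 3351 of all 16515 genes rose. Without a filter 0 enzymes rose in EW8, against 6461 of all 20771 genes. The other targets, with EGLN3 added, then had medians of 0.18, 0.05 and, for the difference, 0.80. Requiring 10 counts in every library removes ADM and ANKRD37, so that 3 targets rose in EW8, 0 enzymes did, and the targets' medians were -0.34, -0.05 and -0.09. Of the 13210 genes then tested 4838 rose in EW8. Adding pseudogene counts gave a target median of 0.01 in EW8.

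Under a 2-fold threshold 0 enzymes rose or fell in either line, 0 had the lower response in EW8, and 3 were higher in TC71 and 0 in EW8 at 0 h. Of the other targets 4 then rose and 1 fell in EW8, 1 rose and 1 fell in TC71, 5 had the higher and 0 the lower response in EW8, and 3 were higher in TC71 and 0 in EW8 at 0 h. The same shares of all genes were 13.9% and 3.35%, 3.26% and 0.854%, 7.28% and 0.981%, and 11.9% and 4.77%. At an adjusted p below 0.01, 0 enzymes rose in EW8 and 2 in TC71, and the share of all genes at that threshold was not counted. Adding transporters and regulators to the enzymes gave 24 genes, of which 4 rose and 18 fell in EW8, 7 rose and 8 fell in TC71, and 2 had the higher and 18 the lower response in EW8. Of all genes 37% rose and 31.6% fell in EW8, and 22.9% and 19.2% in TC71. The response in EW8 was higher for 25.7% and lower for 22.4% of all genes. Keeping only targets of at least 5 CPM at 0 h, a choice made after seeing the data, left 2 that rose in EW8 (median -0.33) and 2 in TC71 (median -0.06).

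Leaving out 1 library at a time, enzymes that rose numbered 0 to 1 in EW8 and 2 to 6 in TC71, with medians from -0.43 to -0.38 and from -0.06 to 0.00. Their difference between responses ranged from -0.41 to -0.37 with 0 to 1 higher in EW8, and the median at 0 h from -0.40 to -0.35. The other targets had medians from -0.25 to -0.07 in EW8, from 0.00 to 0.16 in TC71 and from 0.40 to 0.52 for the difference, and 2 to 4 rose in TC71, 2 being without its second library at 0 h. Of the 32 calls in EW8 29 held in every such fit, and 18 of 25 in TC71.

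Values whose sign turned were all uncalled in the alternative. PFKP (0.01), ALDOC (0.10) in EW8, TPI1 (0.02) in TC71 and the differences of BNIP3 (0.01) and SLC16A3 (0.06) turned under total counts alone, BNIP3 in EW8 (0.01) and its difference (0.06) with pseudogenes added, and ENO1 in TC71 (-0.02) with upper-quartile factors. Without 1 library ALDOC in EW8 ranged from -0.19 to 0.19 (0.03 and 0.07 among them), ENO1 in TC71 -0.01, the SLC16A3 difference 0.02, 0.03, 0.04, 0.10 and 0.16, and the ADM difference at 0 h ranged from -0.11 to 0.60.

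Replicate numbers did not pair the libraries: same-numbered libraries of a line had deviations correlated at -0.138 to -0.0147, and none correlated best with its own number. A replicate block left 13 enzymes that fell in EW8 (median -0.38) and 2 that rose in TC71. Under it 4968 of all 16515 genes fell in EW8 and 3322 rose in TC71. PFKP in EW8 (adjusted p = 0.0873) and GPI (0.131) and ENO2 (0.0807) in TC71 were not called under the block, so that none of these 3 kept calls in opposite directions, and PFKFB3 (0.101), P4HA1 (0.0902) and HIF1A (0.0778) were not called in TC71.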
